A study of Rattus norvegicus with 8 samples.

Results

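Acetylcholine is the transmitter of motor neurons, and the genes described here encode parts of that system or mark the neurons that use it. Isl1 encodes a LIM homeodomain transcription factor of newly formed motor neurons, Slc18a3 the transporter that loads acetylcholine into synaptic vesicles, Ache the esterase that breaks acetylcholine down, and Ecel1 a membrane metalloprotease of the neprilysin family that motor neurons and other neurons express. Members were all probe sets of the array whose only gene symbol in the platform annotation was one of these 4. That rule found 8 of the 8740 probe sets that are not array controls: 2 for Isl1, 2 for Slc18a3, 3 for Ache and 1 for Ecel1. Of these, 6 were bright enough to enter the fit. The 4 genes were selected on their measured intensities in these same arrays, for their regional and genotype differences, so their values are given as a description, with no p-value.

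RNA came from rat embryos at E12.5 (embryonic day) that were either Pax6 homozygous or wild-type. Pax6 encodes a paired-domain transcription factor of the developing forebrain, eye, hindbrain and spinal cord; the labels do not name the allele. The rostral embryo, severed at the level of the upper forelimb, was divided at the isthmus. The posterior piece, called hindbrain here, came with the pharyngeal arches. The anterior piece, called forebrain here, took in the midbrain as well as the eye and nose primordia. The groups were Pax6 homozygous hindbrain, wild-type hindbrain, Pax6 homozygous forebrain and wild-type forebrain, with 2 Affymetrix rat U34A arrays each, 8 in all. The labels call the arrays of a group 1st and 2nd and do not say whether they came from separate embryos or litters, so every SD and p-value measures the spread between these arrays, which may be technical. Values are array intensities on the authors' scale. The 5th percentile of an array, which is negative, gave its noise level: intensities below the size of that value, between 243.5 and 622.7, were read as not above noise. The noise level was higher on the 1st array than on the 2nd in each of the 4 groups.

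In the embryonic hindbrain, motor neurons arise from ventral progenitors and switch on Isl1 as they leave the cell cycle; the cholinergic genes follow as the neurons mature, and branchial and visceral motor neurons also use Phox2 factors. Pax6 acts in the ventral progenitor domains and takes part in setting which classes of motor neuron form. None of the 4 genes is exclusive to motor neurons: Isl1 is also expressed in cranial sensory ganglia, the retina and pharyngeal mesoderm, and Ache in muscle and blood cells.

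RefSeq (assembly GRCr8) listed a promoter window for each of the 4 genes. The 5' flank is shown for Isl1 and Slc18a3, the transcription factor and the vesicular transporter, each with a probe set that read higher in the hindbrain in both genotypes. Those of Ache and Ecel1 are not shown, because their windows lie inside the same annotated gene, whose outermost start is 198 and 1936 bases farther upstream. Capitals mark TAAT on either strand, the core bound by many homeodomain proteins, and CANNTG on either strand, the E-box bound by basic helix-loop-helix proteins, and the marked letters do not overlap. The 250 bases before the annotated start of Isl1, chr2:49823443-49823692 on the minus strand, held 1 TAAT and 1 CANNTG, and the 250 bases before that of Slc18a3, chr16:7722815-7723064 on the minus strand, held 1 TAAT and 2 CANNTG.
Isl1: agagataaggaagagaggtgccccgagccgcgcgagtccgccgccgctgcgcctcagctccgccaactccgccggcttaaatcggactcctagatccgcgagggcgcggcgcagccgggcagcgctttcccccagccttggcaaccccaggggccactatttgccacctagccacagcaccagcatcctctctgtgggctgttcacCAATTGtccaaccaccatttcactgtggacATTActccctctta
Slc18a3: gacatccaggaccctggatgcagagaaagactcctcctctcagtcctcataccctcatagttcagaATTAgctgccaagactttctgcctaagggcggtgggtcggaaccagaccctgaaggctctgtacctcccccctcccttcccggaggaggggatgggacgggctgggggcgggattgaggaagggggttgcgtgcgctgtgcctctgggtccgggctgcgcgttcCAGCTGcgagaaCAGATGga
Among windows of this kind for 33469 transcription starts, 57.0% held a TAAT and 65.5% a CANNTG, so such matches are common and mark no known binding site. In the same annotation Slc18a3 lies inside Chat, on the same strand, and the window shown for Slc18a3 lies inside Chat as well. Chat encodes choline acetyltransferase, the enzyme that makes acetylcholine, and the nested arrangement is known as the cholinergic gene locus.

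Isl1 was highest in the hindbrain in both genotypes. The brighter Isl1 probe set, S69329_at, read 1725.7 and 2705.1 in Pax6 homozygous hindbrain, against 3095.8 and 2806.8 in wild-type hindbrain. In the forebrain it read 805.0 and 955.1 in Pax6 homozygous embryos, against 107.0 and 634.6 in wild-type embryos. All hindbrain arrays were above all forebrain arrays, and the lowest value, 107.0 on the 1st wild-type forebrain array, was not above noise. The log2 difference between hindbrain and forebrain was 1.30 ± 0.70 (SE) in Pax6 homozygous embryos and 3.50 ± 0.70 in wild-type embryos. The group means ran, from the highest, as wild-type hindbrain (2951 ± 204, SD, n = 2), Pax6 homozygous hindbrain (2215 ± 693), Pax6 homozygous forebrain (880 ± 106) and wild-type forebrain (371 ± 373). Each step of this order exceeded the larger of the SDs of its neighbours, although the first did so narrowly, by a gap of 736 against an SD of 693.

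The second Isl1 probe set, S69329_g_at, carries the same sequence accession and followed the first with a Pearson correlation of 0.96 over the 8 arrays. It read 918.3 and 1272.6 in Pax6 homozygous hindbrain and 857.3 and 1329.8 in wild-type hindbrain, so the genotypes overlapped there. The forebrain arrays read 354.7 and 492.8 in Pax6 homozygous embryos and 134.2 and 467.9 in wild-type embryos, and overlapped as well. Its hindbrain arrays were all above its forebrain arrays, by a log2 difference of 1.37 ± 0.61 in Pax6 homozygous embryos and 2.09 ± 0.61 in wild-type embryos. Both probe sets thus gave the regional difference, but the genotype difference in the hindbrain was -0.45 ± 0.70 on the first probe set and 0.02 ± 0.61 on the second, neither larger than its standard error. In the forebrain the genotype difference was 1.75 ± 0.70 and 0.74 ± 0.61. It rested on the 1st wild-type forebrain array, the lowest on both probe sets; without that array the genotype difference was 0.47 and -0.16, and the regional difference in wild-type embryos 2.22 and 1.19.

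**Figure D1:**
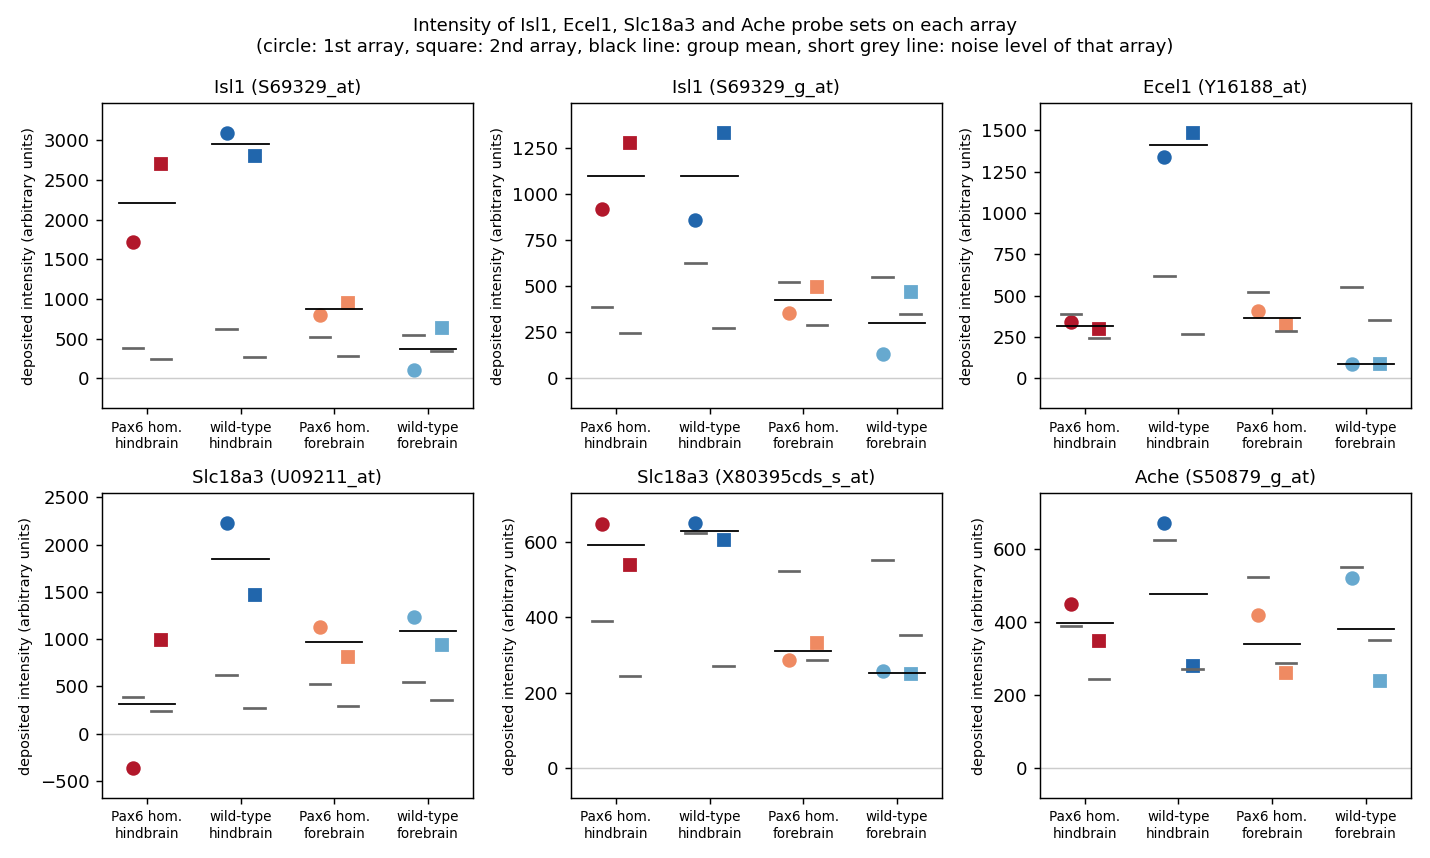
Deposited intensity of the 6 fitted probe sets of Isl1, Ecel1, Slc18a3 and Ache on each of the 8 arrays (linear axis, 1 panel per probe set). Circles and squares are the 1st and 2nd arrays, black lines the means of 2 arrays and short grey lines the noise level of each array; Isl1 S69329_at lies between 1725.7 and 3095.8 on all hindbrain arrays, and Slc18a3 U09211_at holds a value of -366.8 on 1 Pax6 homozygous hindbrain array.

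Ecel1 had, of the 6 fitted probe sets, the genotype difference in the hindbrain that was largest relative to its standard error. Its probe set, Y16188_at, read 338.6 and 298.9 in Pax6 homozygous hindbrain, against 1341.6 and 1485.7 in wild-type hindbrain. In the forebrain it read 406.5 and 324.3 in Pax6 homozygous embryos, against 85.9 and 88.3 in wild-type embryos. Wild-type hindbrain stood alone at a high level, and in the other 3 groups no more than 1 array of 2 was above noise. In wild-type embryos the hindbrain was at least 3.21-fold above the forebrain, a bound set by the noise level of the forebrain arrays; this fold is the ratio of a mean to that level, and the fitted log2 difference of 4.02 ± 0.50 uses forebrain values below it. In Pax6 homozygous embryos the regional difference was -0.19 ± 0.50 on the log2 scale, and the arrays of the regions overlapped.

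The genotype difference of Ecel1 in the hindbrain was -2.15 ± 0.50 on the log2 scale, a mean of 319 ± 28.1 in Pax6 homozygous embryos and 1414 ± 102 in wild-type embryos (SD, n = 2 each). It stayed between -2.24 and -2.06 when any 1 array was left out. In the forebrain the log2 difference was 2.06 ± 0.50, between groups at or near noise, and it was 0.0 when low values were floored at the 50th percentile. Pax6 homozygous hindbrain and Pax6 homozygous forebrain (365 ± 58.1) did not differ beyond their spread. Wild-type forebrain (87.1 ± 1.70) was below noise on both arrays, and since 1 of 2 arrays in each Pax6 homozygous group was too, these 3 groups are given no order. Only 1 probe set stands for Ecel1, so no second measurement on the array repeats the pattern. These are bulk samples, in which fewer cells of a type and less RNA per cell cannot be told apart.

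Slc18a3, the vesicular acetylcholine transporter, read higher in the hindbrain of wild-type embryos without overlap on both of its probe sets, though by less than its standard error on the first, and the sets disagreed on genotype. The first, U09211_at, read -366.8 and 994.5 in Pax6 homozygous hindbrain, against 2230.2 and 1467.9 in wild-type hindbrain. Its forebrain arrays read 1129.1 and 806.7 in Pax6 homozygous embryos and 1234.1 and 938.1 in wild-type embryos. The -366.8 of the 1st Pax6 homozygous hindbrain array is a negative intensity, and 5.35% of the probe sets of that array were lower. The genotype difference in the hindbrain was -3.08 ± 1.14 on the log2 scale with that array and -0.86 without it; without the 2nd array of that group it was -5.30. The regional difference was -2.16 ± 1.14 in Pax6 homozygous embryos, or 0.06 without the same array, and 0.75 ± 1.14 in wild-type embryos. Over both genotypes it was -0.70 ± 0.80, or 0.40 without that array.

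The second Slc18a3 probe set, X80395cds_s_at, was dimmer and steadier. It read 646.6 and 536.7 in Pax6 homozygous hindbrain and 649.7 and 603.6 in wild-type hindbrain. The genotypes overlapped there, and the log2 difference was -0.09 ± 0.46. In the forebrain it read 287.0 and 332.3 in Pax6 homozygous embryos and 257.0 and 249.2 in wild-type embryos, where no array was above noise. All 4 hindbrain arrays were above all 4 forebrain arrays, by a log2 difference of 0.93 ± 0.46 in Pax6 homozygous embryos; in wild-type embryos it was 1.31 ± 0.46, at least 1.42-fold against the noise level. The correlation between the Slc18a3 probe sets was -0.26 over the 8 arrays. The lower Slc18a3 signal in Pax6 homozygous hindbrain was therefore a reading of 1 probe set. Its size, though not its sign, depended on the 1st Pax6 homozygous hindbrain array (a log2 difference of -0.86 without it). The hindbrain excess was present on the other probe set in both genotypes.

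Ache showed no difference between hindbrain and forebrain beyond the spread of its arrays. Its only fitted probe set, S50879_g_at, read 448.4 and 347.8 in Pax6 homozygous hindbrain and 670.8 and 280.2 in wild-type hindbrain. The forebrain arrays read 419.3 and 259.7 in Pax6 homozygous embryos and 520.8 and 238.7 in wild-type embryos, none of them above noise. All 4 groups overlapped, no step in the order of the group means exceeded the SD of its neighbours, and in each of the 4 groups the 1st array was the higher. The log2 difference between hindbrain and forebrain was 0.26 ± 0.65 in Pax6 homozygous embryos and 0.30 ± 0.65 in wild-type embryos, and that between genotypes in the hindbrain was -0.13 ± 0.65. Compared within the same array number, a comparison made after these values were seen, the hindbrain array read higher in 4 of 4 pairs, by 0.10 to 0.42 on the log2 scale. Such an order in all 4 pairs held for 12.9% of all fitted probe sets. With the number as a block the regional difference over both genotypes was 0.28 ± 0.30, still smaller than its standard error. The other Ache probe sets did not enter the fit. S50879_at lay between -151.8 and 23.6 on all 8 arrays, with none above noise, and X70141_r_at lay between 14.0 and 338.4, with 1 array above noise, the 2nd of Pax6 homozygous hindbrain.

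**Figure D2:**
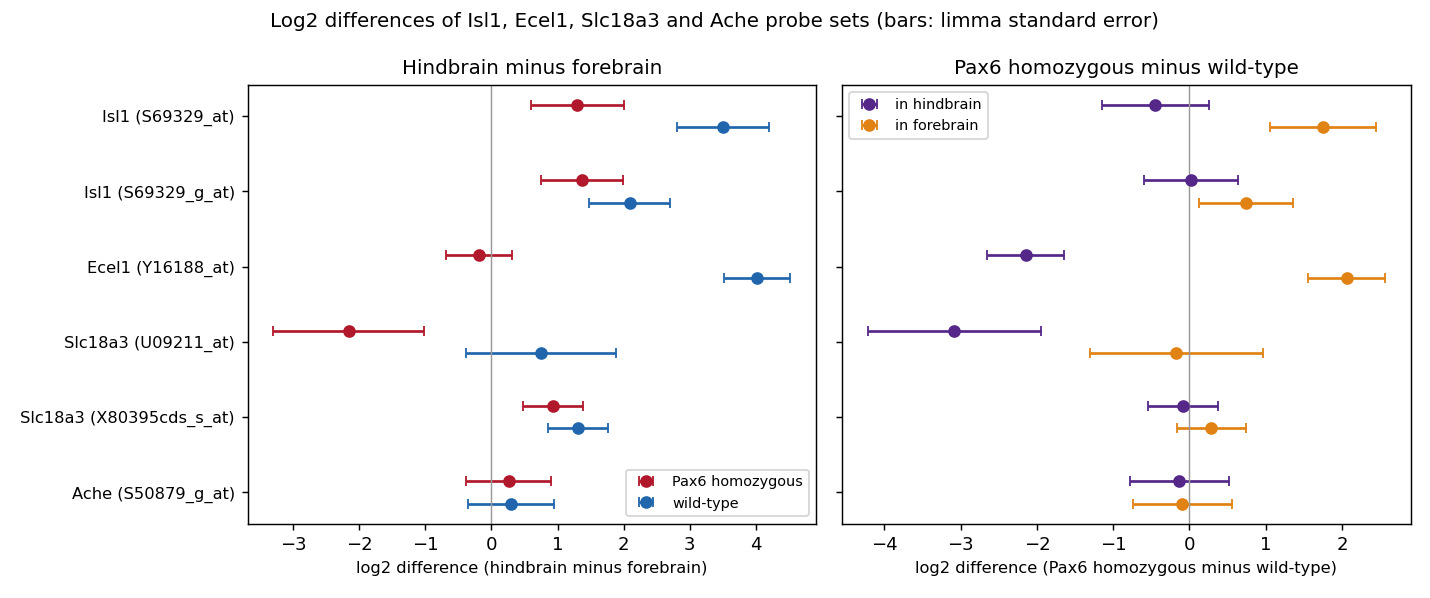
Log2 differences of the same 6 probe sets for hindbrain minus forebrain in each genotype and for Pax6 homozygous minus wild-type in each region (horizontal axis, log2 units; bars are 1 standard error of the fit). Ecel1 spans 4.02 for the region in wild-type embryos and -2.15 for genotype in the hindbrain, and the Slc18a3 probe sets differ in sign or size in most comparisons.

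Counted over the 6 fitted probe sets, hindbrain arrays lay above forebrain arrays without overlap on 3 in Pax6 homozygous embryos, against 20.6% of all 5881 fitted probe sets, and on 5 in wild-type embryos, against 13.8%. Over both genotypes together, 3 had all 4 hindbrain arrays above all 4 forebrain arrays, against 4.37% of all. These were both probe sets of Isl1 and X80395cds_s_at of Slc18a3. Between genotypes, 3 were lower without overlap in Pax6 homozygous hindbrain (14.4% of all were), namely S69329_at of Isl1, U09211_at of Slc18a3 and Ecel1, and 0 were higher (20% of all). In the forebrain 3 were higher without overlap in Pax6 homozygous embryos (12.4% of all), namely S69329_at, X80395cds_s_at and Ecel1. Since the genes were chosen for these differences, nothing is read from the counts.

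The rest of the cholinergic pathway was poorly covered by the array. Of the 8 genes listed for acetylcholine synthesis, transport and breakdown, 4 had a probe set. Chat, which shares its locus with Slc18a3, was negative on all 8 arrays: -237.7 and -197.1 in Pax6 homozygous hindbrain, -179.5 and -202.5 in wild-type hindbrain, -131.4 and -164.4 in Pax6 homozygous forebrain, and -81.0 and -238.0 in wild-type forebrain. The probe set for this defining enzyme of cholinergic neurons was thus not above noise in any group. No other probe set stood for Chat, so absent RNA and a probe set that fails to detect it cannot be told apart. Within this list, hindbrain arrays lay above forebrain arrays without overlap in both genotypes on X80395cds_s_at of Slc18a3. They did not on U09211_at or on the fitted probe sets of Ache and Colq. Colq, which encodes the collagen tail that anchors the esterase at the muscle endplate, was measured on all 8 arrays and averaged 2622 ± 803 in Pax6 homozygous hindbrain, 2580 ± 1994 in wild-type hindbrain, 2437 ± 1627 in Pax6 homozygous forebrain and 2359 ± 1555 in wild-type forebrain (SD, n = 2 each). Its log2 difference between regions over both genotypes was 0.15 ± 0.50 (limma adjusted p = 0.999). Among acetylcholine receptors, 10 of 16 listed genes were fitted; 6 had a positive and 4 a negative difference between hindbrain and forebrain over both genotypes, and 0 passed an adjusted p of 0.05 in limma (of all probe sets 1.51% did, and 476 had an unadjusted p below that value). Chrna3, a subunit of ganglionic nicotinic receptors, had the smallest p of that list, with a log2 difference of 1.32 ± 0.38 and an adjusted p of 0.215.

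Other transcription factors of motor neurons leaned to the hindbrain without passing the test. Of the 23 listed, 7 including Isl1 were on the array and all 7 were fitted. The 6 without Isl1 had a median log2 difference between hindbrain and forebrain over both genotypes of 1.51, against 0.01 over all 3553 genes fitted; 5 were positive, 1 was negative and 0 passed. Phox2a, a homeodomain factor of branchial and visceral motor neurons, read 689.4 and 854.7 in Pax6 homozygous hindbrain and 660.5 and 842.6 in wild-type hindbrain. In the forebrain Phox2a read 188.4 and 239.7 in Pax6 homozygous embryos and -120.9 and 246.6 in wild-type embryos, none above noise. Its regional difference was 2.33 ± 0.55 (adjusted p = 0.108). Onecut1, a factor of early motor neurons and interneurons, gave 2.52 ± 0.64 (adjusted p = 0.134). Lhx1, a LIM factor of lateral motor column neurons and interneurons, gave 2.52 ± 0.81 (adjusted p = 0.307). Onecut1 was above noise on 4 of 8 arrays and Lhx1 on 2, so both differences, and the median above, use values below noise. Against the noise level, wild-type hindbrain was at least 1.56-fold above wild-type forebrain for Onecut1 and at least 1.25-fold for Lhx1. Nkx6-1, which patterns the ventral progenitors of motor neurons, averaged 1605 ± 578 in Pax6 homozygous hindbrain, 1526 ± 38.8 in wild-type hindbrain, 1018 ± 274 in Pax6 homozygous forebrain and 910 ± 35.1 in wild-type forebrain, and its regional difference was 0.69 ± 0.25 (adjusted p = 0.422). Isl2, the close relative of Isl1, was above noise on 1 of 8 arrays, and Pou3f1, a POU factor of some motor neuron pools, gave -0.52 ± 0.26 (adjusted p = 0.674).

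Between genotypes in the hindbrain, the 6 factors had 3 positive and 3 negative differences and 0 passed. Lhx1 read 270.1 and 58.1 in Pax6 homozygous hindbrain, neither above noise, against 1000.4 and 304.3 in wild-type hindbrain. The Lhx1 log2 difference of -2.14 ± 1.15 had an adjusted p of 0.989. Phox2a differed between genotypes by 0.04 ± 0.78 in the same tissue (adjusted p = 1.0). Over all 5881 probe sets, 1 passed in that comparison by limma, or 0.017%, and 264 had an unadjusted p below 0.05.

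Genes for motor neuron axons, surface proteins and trophic receptors gave 3 that passed in the hindbrain direction among 16 fitted genes other than Ecel1, and 14 of 16 differences were positive, with a median of 0.58. All 3 were intermediate filaments of peripherally projecting or large neurons. Nefl, the light neurofilament subunit, averaged 14306 ± 3125 in Pax6 homozygous hindbrain and 16087 ± 3528 in wild-type hindbrain, against 2910 ± 61.4 in Pax6 homozygous forebrain and 2077 ± 264 in wild-type forebrain. The log2 difference of Nefl was 2.61 ± 0.16 (adjusted p = 6.31e-05), that of Nefm 2.78 ± 0.18 (adjusted p = 7.80e-05) and that of Prph, or peripherin, 2.61 ± 0.34 (adjusted p = 0.00576). All 4 hindbrain arrays were above all 4 forebrain arrays for each. Between genotypes in the hindbrain these genes did not pass: Nefl differed by -0.17 ± 0.23, Nefm by -0.25 ± 0.26 and Prph by -0.66 ± 0.48, against -2.15 ± 0.50 for Ecel1 (limma adjusted p of 0.991 or more for the filaments). In that comparison 5 of the 16 genes were positive and 11 negative, with a median of -0.17 and 0 past the threshold. The neprilysin family offered Mme and Ece1 beside Ecel1. Mme, which encodes neprilysin itself, averaged 1218 ± 117 in Pax6 homozygous hindbrain and 684 ± 30.6 in wild-type hindbrain on its brighter probe set. That was a log2 difference of 0.83 ± 0.42 (limma adjusted p = 0.989), and the second fitted Mme probe set gave -0.12, the opposite sign.

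**Figure D3:**
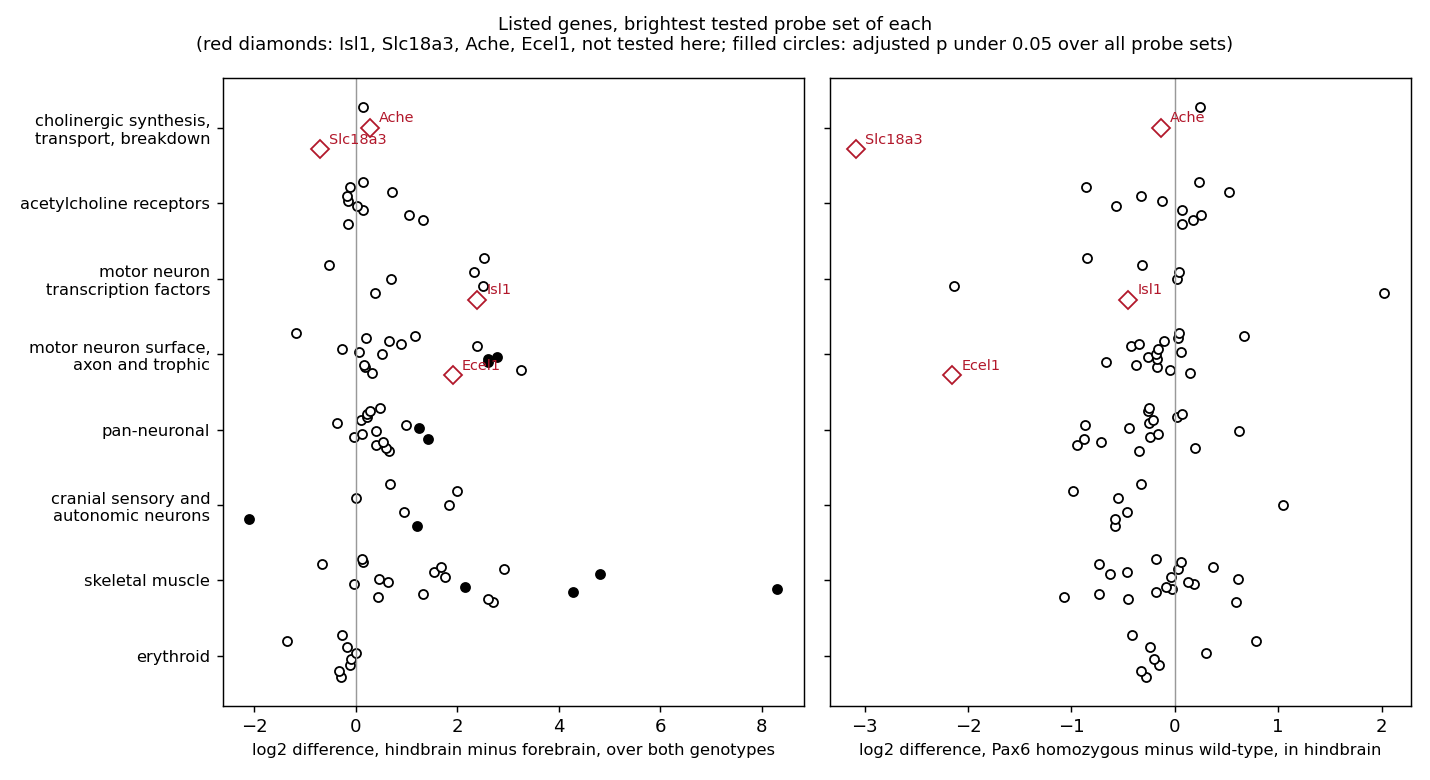
Log2 difference of each fitted gene, with 1 row per gene list, for hindbrain minus forebrain over both genotypes (left panel) and for Pax6 homozygous minus wild-type in the hindbrain (right panel). Red diamonds are Isl1, Slc18a3, Ache and Ecel1, which were in the fit but are given without a p-value, and filled circles passed an adjusted p of 0.05. Ecel1 lies at 1.91 and -2.15, against 2.61 and -0.17 for Nefl and 2.78 and -0.25 for Nefm in its row.

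Some genes of other cell types also passed between regions. Neuronal genes in general gave 14 positive differences of 16 and 2 that passed, Ina (1.42 ± 0.14, adjusted p = 0.00121) and Rtn1 (1.24 ± 0.13, adjusted p = 0.00164), a neuronal intermediate filament and a reticulon of the endoplasmic reticulum. Their summed level over 16 genes was between 77826 and 83134 in Pax6 homozygous hindbrain, between 101749 and 108945 in wild-type hindbrain, between 61612 and 64312 in Pax6 homozygous forebrain, and between 65656 and 67333 in wild-type forebrain. The hindbrain genotypes did not overlap on that sum, and 12 of the 16 genes had a negative genotype difference there, with a median of -0.25 and 0 that passed. The median over all 3553 genes fitted was 0.03, and the sum of the erythroid genes, given below, did not overlap either. Genes of cranial sensory and autonomic neurons summed to between 7170 and 7357 in Pax6 homozygous hindbrain and between 9851 and 10999 in wild-type hindbrain, against 5595 to 6108 in Pax6 homozygous forebrain and 4888 to 6088 in wild-type forebrain. Of their 7 fitted genes, 6 had a negative genotype difference in the hindbrain and 0 passed. Ngfr, the low-affinity neurotrophin receptor, made up the larger part of this list's sums in the hindbrain, and Runx1 was above noise on no array. On its brighter probe set Ngfr averaged 4400 ± 189 in Pax6 homozygous hindbrain and 6632 ± 1230 in wild-type hindbrain (SD, n = 2 each), so the sums largely follow that probe set. The genotype difference in the hindbrain was -0.58 on that probe set and 0.93, the opposite sign, on the second fitted Ngfr probe set. Between regions, Ngfr was higher in the hindbrain on the brighter probe set (1.22 ± 0.15, adjusted p = 0.00359), and Tac1, a tachykinin precursor, was lower (-2.10 ± 0.34, adjusted p = 0.0183). The second Ngfr probe set gave a regional difference of 1.95 that did not pass (limma adjusted p = 0.779). Whether these cells contribute to the Isl1 and Ecel1 values was not tested.

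Skeletal muscle genes, included because the pharyngeal arches of the hindbrain piece form muscle, had 16 positive differences of 18 and 4 that passed, led by cardiac actin Actc1 (8.31 ± 0.24, adjusted p = 7.35e-07). Their summed level was between 35506 and 41740 in Pax6 homozygous hindbrain and between 37890 and 42366 in wild-type hindbrain, which overlap, and between 7471 and 12502 in Pax6 homozygous forebrain and between 8259 and 13244 in wild-type forebrain. Genes of other hindbrain neurons gave 1 that passed of 11, the neuropeptide gene Sst (2.46 ± 0.22, adjusted p = 0.00066). Erythroid genes gave 0 that passed of 8 between regions, and all 8 had a negative difference, with a median of -0.22. Between genotypes in the hindbrain, 6 of the 8 were negative and 2 positive, with a median of -0.22 and 0 that passed. Their summed level was between 141580 and 144668 in Pax6 homozygous hindbrain and between 158033 and 171386 in wild-type hindbrain, without overlap. A lower sum in Pax6 homozygous hindbrain was thus not particular to neuronal genes. The regional labels were checked on 4 fitted genes listed for hindbrain identity, of which 2 passed. These were Hoxa5 and Hoxd3, posterior patterning genes with log2 differences of 5.62 ± 0.37 and 3.50 ± 0.49. Egr2, above noise on 1 of 8 arrays, gave 0.95 ± 0.56 (limma adjusted p = 0.797), and Phox2a is given above. Of 7 fitted genes listed for the anterior piece, 4 passed as lower in the hindbrain, namely Alx1, Lhx2, Nkx2-1 and Dlx5. The Pax6 probe set read 1194.2 and 1111.3 in Pax6 homozygous hindbrain and 826.8 and 531.1 in wild-type hindbrain, so it does not by itself check the genotype. Fabp7, a brain fatty acid binding protein, read 1190.1 and 1204.6 in Pax6 homozygous hindbrain, against 16568.4 and 15110.8 in wild-type hindbrain, and was the 1 probe set that passed between genotypes in the hindbrain (-3.72 ± 0.23, limma adjusted p = 0.000558).

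How far the genes varied together depended on the probe set. Over the 8 log2 values, the correlation of Ecel1 with Isl1 was 0.79 on S69329_at and 0.68 on S69329_g_at. X80395cds_s_at of Slc18a3 correlated with Isl1 at 0.83 and 0.84 and with Ecel1 at 0.77, whereas U09211_at of Slc18a3 gave -0.07 and -0.17 with Isl1 and 0.17 with Ecel1. Ache lay between -0.19 and 0.30 with all the others. The points share arrays, so these are descriptions. The gene most like Isl1 (S69329_at) was Phox2a, with a Pearson correlation of 0.97, ahead of Timp1, Stk10, Cited2 and Dll3 (0.95, 0.95, 0.95 and 0.94), and each was lowest on the 1st wild-type forebrain array, where Isl1 was lowest too. The genes most like Ecel1 were P2rx3, an ATP-gated channel of sensory neurons (0.88), the microtubule protein gene Mapt (0.88), the growth cone genes Gap43 (0.87) and Basp1 (0.87), and Inpp5d (0.86). P2rx3 read 752.0 and 823.5 in Pax6 homozygous hindbrain and 1101.0 and 1071.6 in wild-type hindbrain, with forebrain values of 704.2 and 465.2 in Pax6 homozygous embryos and 492.6 and 331.2 in wild-type embryos.

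Gap43, which encodes a growth cone protein, read 5738.6 and 6201.8 in Pax6 homozygous hindbrain against 8375.9 and 11391.9 in wild-type hindbrain. The forebrain values of Gap43 were 5338.4 and 5689.2 in Pax6 homozygous embryos and 5094.9 and 4974.9 in wild-type embryos. Like Ecel1, both genes were highest in wild-type hindbrain, but at log2 genotype differences of -0.46 ± 0.41 for P2rx3 and -0.71 ± 0.19 for Gap43 in the hindbrain, neither past the threshold (limma adjusted p = 0.991 and 0.989). The genes most like Slc18a3 (U09211_at) were Kcnh7, Ier3, Ptpn21, Cox5b and Stip1 (0.95, 0.95, 0.94, 0.94 and 0.93), each lowest on the array where that probe set was negative. Those most like Ache were Gipc1, Pi4kb, Fos, Pecam1 and Tns1 (0.98, 0.98, 0.98, 0.97 and 0.97), all higher on the 1st than on the 2nd array in each of the 4 groups, as Ache was.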

How the data were processed

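E12.5 rat RNA was measured on 8 Affymetrix rat U34A arrays, 2 for each of 4 groups named in the sample titles. The deposited values are linear probe set intensities, which the authors had scaled so that the trimmed means of the arrays agree (2504 on each, from the values themselves); their software is not stated in the labels used here; 18.3% to 22.3% of values per array are negative. The authors' scaling was kept. Intensities were floored at the pooled 25th percentile (45.9) and taken to log2. Of 8799 probe sets, 59 array controls were left out, and the 5881 with 2 or more arrays above the 40th percentile of all values (255) were fitted with limma 3.58.1 in R 4.3.3 (lmFit, eBayes with an intensity trend, 4 group means over all 8 arrays), with Benjamini-Hochberg adjustment over the 5881 and a threshold of 0.05. Standard errors come from this fit after eBayes, with 4 residual and 4.63 prior degrees of freedom. They draw the spread of a probe set toward that of probe sets of like intensity, and so do the p-values. In the comparisons of 2 groups, Ecel1 had a standard error of 0.50 and a pooled within-group SD of 0.14, and U09211_at 1.14 and 1.60. The value after ± is 1 standard error unless marked SD. Differences among values below the floor are lost. Values between the floor and the noise level entered the fit as they were, so a fitted difference can be larger than the bound set by noise.

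Symbols came from the platform annotation: 7018 probe sets had 1 symbol, 308 several and 1473 none. A gene was represented by its brightest fitted probe set. Genes were named by rule: all listed genes of cholinergic metabolism and motor neuron transcription factors on the array; from each other list the 4 with the smallest regional p and the 3 with the smallest genotype p in the hindbrain; the 5 genes best correlated with each of the 4; and Pax6 and Fabp7. Members, the 13 gene lists and the tests were chosen with earlier results of these data known. The fit was tested on simulated data. Alternatives were another floor, no filter, no trend, quantile normalization, the replicate number as a block, 4 arrays only, and leaving out each array. Tables were made with Python 3.11.15. The number of arrays limits the precision.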

Additional observations from a re-analysis of the deposited data

Results flagged for a closer look

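Some genotype differences ran in opposite directions in the hindbrain and the forebrain, with both Pax6 homozygous arrays below both wild-type arrays in one region and above them in the other. Values are log2 differences, Pax6 homozygous minus wild-type in the hindbrain minus the same in the forebrain. Among the 4 genes this held for Ecel1 (-4.21) and Isl1 S69329_at (-2.20), and the second Isl1 probe set gave -0.72. These probe sets were in the fit with all others, but no p-value is given for them, because the genes were selected on these data. With low values floored at the 50th percentile the Ecel1 forebrain difference was 0.0, so the opposite direction was lost, and the Ecel1 value was -1.51; both wild-type forebrain values of Ecel1 are below noise. The Isl1 S69329_at value ranged from -3.48 to -0.91 with each array left out in turn, and was nearest to 0 without the 1st wild-type forebrain array. Among the other named genes it held for Onecut1 (-2.43), Pou3f1 (-0.85), Gap43 (-0.84), Dlx5 (0.76) and the lens crystallin gene Crybb3 (4.76). Of these, Gap43 was above noise on 8 of 8 arrays, Pou3f1 on 7, Dlx5 and Crybb3 on 5 and Onecut1 on 4. For Onecut1 no wild-type forebrain array was above noise, and for Dlx5 no wild-type hindbrain array, so those directions use values below noise. How many of all fitted probe sets show opposite directions was not counted, so nothing is read from these cases. For a single direction, 14.4% of all were lower and 20% higher without overlap in Pax6 homozygous hindbrain, and 12.4% were higher in Pax6 homozygous forebrain. In limma's interaction term 0 of 5881 probe sets passed, with a smallest adjusted p of 0.9995 and 112 at an unadjusted p below 0.05, which is fewer than the 294 that uniform p-values would give. The groups hold 2 arrays each, too few for a check of single arrays that stand apart.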

How the results depend on the processing

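Of 492 recomputed differences of the 6 fitted probe sets, 25 changed sign, over 13 of 36 differences. In 21 of the 25 the reported difference was itself within the spread between arrays, among them all those of Ache. The other 4 were S69329_g_at of Isl1 for the interaction (0.018 with a floor at the 50th percentile, 0.18 without the 1st wild-type forebrain array) and for genotype in the forebrain (-0.16 without that array), and U09211_at of Slc18a3 for region in Pax6 homozygous embryos (0.059 without the 1st Pax6 homozygous hindbrain array). A floor at the 50th percentile compresses low values by construction: the regional log2 difference in wild-type embryos became 2.39 and 1.10 for the Isl1 probe sets, 0.33 for X80395cds_s_at and 1.51 for Ecel1, and the genotype difference in the hindbrain -1.36 for U09211_at and -1.51 for Ecel1. Quantile normalization gave 1.16 for X80395cds_s_at and 3.84 for Ecel1 for the region in wild-type embryos, and the cause was not tested. With each array left out in turn, the regional difference in wild-type embryos ranged from 2.22 to 4.78 and from 1.19 to 2.99 for the Isl1 probe sets, from 0.45 to 1.05 for U09211_at, from 1.25 to 1.36 for X80395cds_s_at, from -0.33 to 0.93 for Ache and from 3.95 to 4.09 for Ecel1. The differences behind those 4 ranged from -1.62 to 0.18 for the S69329_g_at interaction, from -0.16 to 1.64 for its genotype difference in the forebrain, and from -4.38 to 0.059 for the U09211_at regional difference. The genotype difference in the hindbrain ranged from -0.77 to -0.12 and from -0.30 to 0.33 for the Isl1 probe sets, from -5.30 to -0.86 for U09211_at, from -0.22 to 0.046 for X80395cds_s_at, from -0.76 to 0.50 for Ache and from -2.24 to -2.06 for Ecel1.

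Counts over all probe sets also moved. Between genotypes in the hindbrain 1 passed in the fit as reported, 15 with the higher floor, 22 with no filter, 5 with no trend and 2 with 4 arrays only; in the forebrain the 1 became 3, 0, 0 and 0. The interaction gave 0 as reported, 8 with the higher floor, 13 with no filter and 4 with no trend. The regional count in wild-type embryos was 46, and 21 with 4 arrays only. Leaving out each array gave 23 to 49 for region in wild-type embryos, 14 to 32 in Pax6 homozygous embryos (27 as reported), 37 to 82 over both genotypes (89 as reported), 1 to 3 and 0 to 5 for genotype in the hindbrain and forebrain, and 0 to 1 for the interaction. Of 26 recounts of the gene lists with all probe sets of a gene averaged, 25 stayed within 1.5 times.

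The labels number the arrays of each group, and nothing says that a number marks a shared litter or batch. Deviations of same-numbered arrays correlated between groups with r from 0.28 to 0.46. With the replicate number as a block, 65 probe sets passed for region in Pax6 homozygous embryos, 139 over both genotypes and 2 for genotype in the hindbrain.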
